A study of Mus musculus with 4 samples.

Results

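These data describe 7 genes that post-transcriptional control and organelle removal in the lens are known to depend on: the RNA-binding protein genes *Tdrd7*, *Celf1*, *Rbm24*, *Caprin2* and *Stau2*, the DNase gene *Dnase2b* and the phospholipase gene *Pla2g16*, whose newer symbol is Plaat3. They were chosen by name, and all 7 were found among the 14924 genes with values. The study deleted S100A4, a calcium-binding protein of differentiating lens fibers, and asked how the lens transcriptome of S100A4-/- mice differs from that of littermate controls. Poly(A) RNA was sequenced in 4 libraries, 2 from S100A4-/- lenses, here called null pools, and 2 from wild type lenses, here called WT pools. All mice were on a C57BL/6J background and 1 month old. The S100A4-/- line is a constitutive null, so the gene is absent from every tissue and age, and the WT lenses came from littermates. Each library was a pool of 6 to 12 whole lenses, so epithelium and fibers of all ages were measured together, and the spread given below is between pools. The study used male and female mice, and the labels do not give the sex of a pool. The null pools held 81602367 and 74108017 reads on genes, and the WT pools 70253985 and 68038158.

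A lens fiber cell stops transcription when it degrades its nucleus, and from then on its proteins come from RNA it already holds. RNA granules and the proteins in them set which of those RNAs are kept, moved and translated, and loss of TDRD7 or CELF1 is known to cause cataract. When a fiber matures, the lysosomal enzyme DNASE2B degrades the DNA of the nucleus, and PLA2G16 takes part in breaking down the membranes of the other organelles.

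The values are reads on a gene scaled by library size, here called normalized values. A single read was worth 0.856 and 1.01 in the null pools against 1.04 and 1.09 in the WT pools. The labels were first checked on the deleted gene. The normalized value of *S100a4* was 14.6 and 18.2 in the null pools against 14420 and 14385 in the WT pools, with a log2 fold change of −9.70 (SE 0.10). The tissue was checked on its marker genes. The 10 lens fiber markers were led by the crystallin gene *Cryaa*. Their normalized values summed to 23057418 and 24526951 in the null pools against 24769027 and 24752743 in the WT pools. Of the 10 markers 0 passed the test, where 5.62% of all genes tested rose and 1.33% fell. Both null pools were below both WT pools in this sum, at 0.961 of the WT mean. Among all genes tested, 23.2% had both null pools lower. The sexes in the pools were looked at through Y-linked genes and *Xist*, the RNA of the inactive X chromosome. The Y-linked *Eif2s3y* had normalized values of 354 and 375 in the null pools against 207 and 187 in WT, with a log2 fold change of 0.88 (SE 0.13, limma adjusted p 2e-06), and *Ddx3y* had 570 and 556 against 505 and 347 (0.43, SE 0.12, limma adjusted p 0.014). *Kdm5d* and *Uty* had log2 fold changes of 0.54 and 0.27 (limma adjusted p 0.051 and 0.476). *Xist*, at 4685 and 3307 against 3426 and 3784, overlapped between the genotypes. Of these 4 Y-linked genes 2 were thus higher in the null pools by the test, as were 5.62% of all genes tested. The part of the sexes in the results that follow was not tested. In RNA of whole lenses, fewer cells of a type and less RNA per cell cannot be told apart.

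None of the 7 genes passed the test between S100A4-/- and WT lenses. With limma on log2(value + 1) and Benjamini-Hochberg adjustment, 0 of 7 changed at least 2-fold with an adjusted p of at most 0.05, where 3.72% of the 14780 genes tested did, 3.65% higher and 0.0744% lower in the null pools. Without the fold threshold the count was also 0 of 7, against 6.96% of all genes tested, 5.62% higher and 1.33% lower. That is 831 genes higher and 197 lower, or 785 and 55 with equal library totals. DESeq2 and edgeR on the recovered reads also called 0 of 7 at an adjusted p of at most 0.05, against 4.44% and 6.93% of all genes. The number at an unadjusted p under 0.05 was 0 of 7 by limma, against 17.7% of all genes tested, and it was also 0 by DESeq2 and by edgeR. Log2 fold changes of the 7 genes lay between −0.09 and 0.05, with a median of −0.05 beside −0.0052 for all genes tested. The size of the change was larger than that of any of the 7 in 60.2% of the genes tested. The 95% intervals together ran from a log2 fold change of −0.23 to one of 0.15, that is from 14.9% lower to 11.0% higher in S100A4-/- lenses. A miss of the threshold does not show that the levels were the same in both genotypes. The intervals use the limma variance, which is drawn largely from the other genes. They give the changes left possible under that model and not from the pools of each gene alone.

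**Figure D1:**
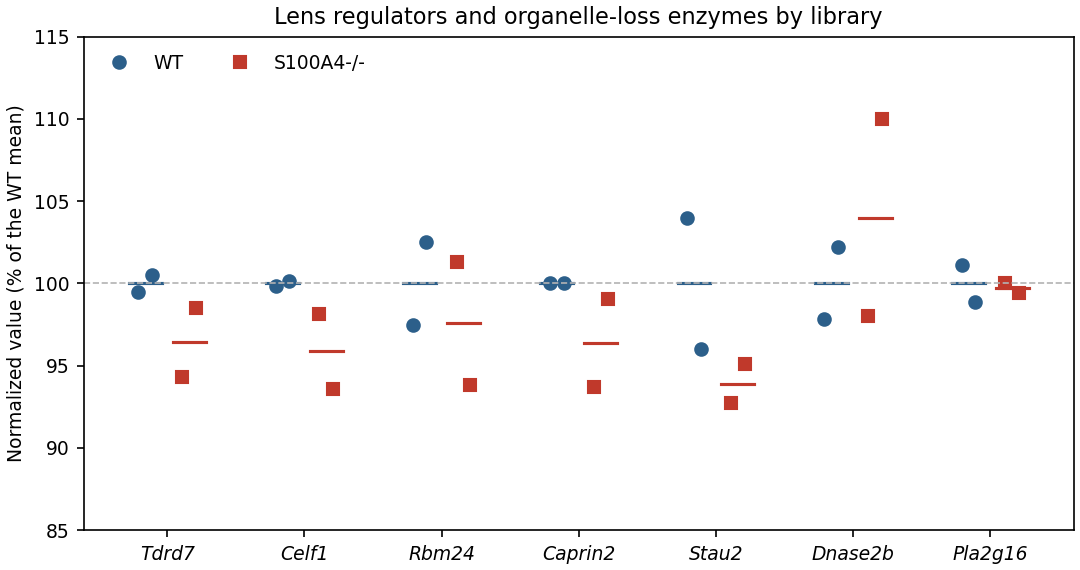
Normalized value of each of the 7 genes in each library, as a percentage of that gene's WT mean, with circles for the 2 WT pools, squares for the 2 null pools and short lines for the group means. The axis does not start at 0. The S100A4-/- points lie below both WT points for Tdrd7, Celf1, Caprin2 and Stau2, and the groups overlap for Rbm24, Dnase2b and Pla2g16.

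*Tdrd7* (ENSMUSG00000035517) encodes a Tudor domain protein of lens RNA granules. On GRCm38 it lies on chromosome 4 from 45965334 to 46034761, on the plus strand, with 3958 bases of exon. Its normalized values were 120625 and 126036 in the null pools against 127273 and 128550 in the WT pools. Both null pools were below both WT pools, and the null pools differed from each other by 4.49% where the difference of the group means was −3.58%. The log2 fold change was −0.05 (SE 0.04, 95% interval −0.14 to 0.03), with a limma adjusted p of 0.552. It ranked 33 of all genes by normalized value per kb of exon.

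*Celf1* (ENSMUSG00000005506) encodes a protein that binds GU-rich stretches of mRNA and controls splicing, decay and translation. It lies on chromosome 2 from 90940382 to 91019497, on the plus strand. Normalized values of 15645 and 14916 were found in the null pools and of 15913 and 15959 in the WT pools. The null pools were again the lower ones, with a difference of −4.12% between the means, and the WT pools almost coincided. The log2 fold change was −0.06 (SE 0.04, 95% interval −0.15 to 0.03), with a limma adjusted p of 0.495, the lowest of the 7 genes.

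*Rbm24* (ENSMUSG00000038132), on chromosome 13 from 46418434 to 46431095 on the plus strand, encodes a regulator of splicing and mRNA stability that is known to bind *Sox2* mRNA in the developing eye. In the null pools its normalized values were 11491 and 10637, and in the WT pools 11053 and 11627. The groups overlapped, with a null pool lowest and a WT pool highest. For *Rbm24* the log2 fold change was −0.04 (SE 0.05, 95% interval −0.13 to 0.06), with a limma adjusted p of 0.757.

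*Caprin2* (ENSMUSG00000030309), on chromosome 6 from 148842492 to 148896237 on the minus strand, encodes a component of ribonucleoprotein granules in lens fibers. The null pools had normalized values of 15262 and 16130, and the WT pools had 16287 and 16287. The higher null pool lay close under the WT pair, so that the groups did not overlap but nearly met. The log2 fold change was −0.05 (SE 0.04, 95% interval −0.14 to 0.03), with a limma adjusted p of 0.565.

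*Stau2* (ENSMUSG00000025920), on chromosome 1 from 16228674 to 16520112 on the minus strand, encodes a double-stranded RNA-binding protein of RNA transport granules. Normalized values of *Stau2* were 1163 and 1193 in the null pools against 1304 and 1204 in the WT pools. The second WT pool stood nearer to the null pools than to the first WT pool, and the groups did not overlap. The difference of the means was −6.09%, with a log2 fold change of −0.09 (SE 0.07, 95% interval −0.23 to 0.05) and a limma adjusted p of 0.560. This fold change became −0.032 without the first WT pool and −0.147 without the second. Counting alone gave an SE of up to 3.02% for a single library, and *Stau2* had the widest interval of the 7.

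*Dnase2b* (ENSMUSG00000028185), on chromosome 3 from 146580985 to 146615596 on the minus strand, encodes the acid DNase that removes fiber cell DNA. Its normalized values were 13275 and 14891 in the null pools against 13244 and 13837 in the WT pools. The second null pool was the highest of the 4, and the first lay between the WT pools. The null pools differed from each other by 12.2%, more than the 4.01% by which the group means differed. Its log2 fold change was 0.05 (SE 0.05, 95% interval −0.04 to 0.15), with a limma adjusted p of 0.607. This fold change became −0.03 without the second null pool and 0.14 without the first. With libraries scaled to the lens fiber markers it was 0.11.

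Heat shock factor 4, encoded by *Hsf4*, is known to be needed for *Dnase2b* expression in the lens and binds heat shock elements. *Hsf4* had normalized values of 14264 and 16015 in the null pools against 14938 and 15211 in the WT pools. The null pools lay outside the WT pair on either side, with a log2 fold change of 0.0039 (SE 0.05, 95% interval −0.09 to 0.10) and a limma adjusted p of 0.981. The RefSeq promoter windows of 250 bases before each start were searched for the heat shock element letters GAANNTTC and TTCNNGAA. Each pattern reads the same on both strands, and neighbouring matches can share 3 bases. Windows were at hand for 6 of the 7 genes, 9 windows in all. A match was found in 2 of them, 1 of *Dnase2b* and 1 of the 3 of *Tdrd7*, while 12.8% of all 32851 windows held one. Both are shown because they belong to the nuclease and to the most abundant of the RNA-binding protein genes, with the bases 5′ to 3′ on the gene's strand, on build GRCm38.p6, and the matched letters in capitals. The *Tdrd7* stretch holds 249 bases, since the last base of its window, where the GENCODE gene begins, was left out.
Dnase2b, chr3:146615599-146615848, minus strand: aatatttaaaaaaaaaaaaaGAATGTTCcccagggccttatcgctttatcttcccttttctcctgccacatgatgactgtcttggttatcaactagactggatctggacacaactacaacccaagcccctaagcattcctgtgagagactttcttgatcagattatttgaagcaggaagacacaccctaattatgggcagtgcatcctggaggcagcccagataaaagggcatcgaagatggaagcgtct
Tdrd7, chr4:45965085-45965333, plus strand: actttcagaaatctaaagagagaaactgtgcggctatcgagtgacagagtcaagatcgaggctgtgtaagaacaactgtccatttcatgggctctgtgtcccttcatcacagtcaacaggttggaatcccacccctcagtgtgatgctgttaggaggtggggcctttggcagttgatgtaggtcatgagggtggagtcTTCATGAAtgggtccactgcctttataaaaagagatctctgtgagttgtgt
The match GAATGTTC in *Dnase2b* begins 230 bases before the RefSeq start and TTCATGAA in *Tdrd7* 52 bases before it. Of the other motifs searched on both strands, the TATA box (TATAAA) also occurred in this *Tdrd7* window and is in 12.4% of all windows. The MAF site (TGCTGA), in 16.1% of all windows, was found in another window of *Tdrd7*, and the CRX and OTX site (TAATCC), in 6.25%, in 0 of the 9. A match of letters is a description of the window and not a bound site, and no binding was measured here.

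*Pla2g16* (ENSMUSG00000060675), on chromosome 19 from 7557459 to 7588545 on the plus strand, encodes a small membrane-acting phospholipase of the PLAAT family. The null pools had normalized values of 46117 and 45839, both of them between the WT pools at 46616 and 45583. The means differed by −0.263%, with a log2 fold change of −0.0037 (SE 0.04, 95% interval −0.08 to 0.08) and a limma adjusted p of 0.978. It ranked 121 of all genes by normalized value per kb of exon.

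Considered together, the S100A4-/- mean was below the WT mean in 6 of the 7 genes and above it in *Dnase2b*. The null pools were both below both WT pools in 4 of 7 genes and both above in 0 of 7. Among all genes tested, the groups did not overlap in 46.9%, with both null pools lower in 23.2% and both higher in 23.7%. The direction of the small differences depended on the scaling: with libraries scaled to the lens fiber markers, the median of all genes moved to 0.05 and the log2 fold changes of *Tdrd7*, *Rbm24*, *Caprin2* and *Pla2g16* were above 0. No exon base of the 7 genes is shared with another gene in the GENCODE annotation.

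**Figure D2:**
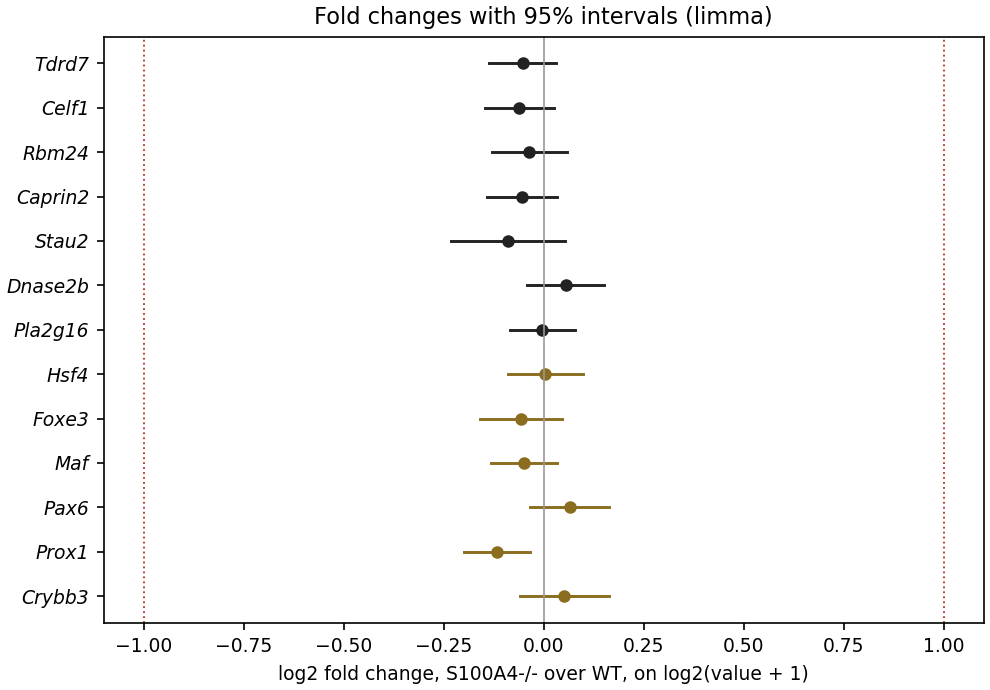
Log2 fold change, S100A4-/- over WT on the log2(value + 1) scale, with points for the estimates and bars for the 95% limma intervals, in black for the 7 genes and in brown for Hsf4, Foxe3, Maf, Pax6, Prox1 and Crybb3. Dotted lines mark a 2-fold change. All 7 intervals in black include 0 and end between −0.23 and 0.15, and among these 6 genes in brown the Prox1 interval alone leaves out 0.

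To compare levels between the 7 genes and their relatives, values were divided by the length of the exon union of each gene. In WT lenses *Tdrd7* was the highest of the 7, at a normalized value of 32317 ± 228 per kb (SD, n = 2). It was followed by *Pla2g16* at 7208 ± 114, *Dnase2b* at 4853 ± 150, *Rbm24* at 3248 ± 116, *Celf1* at 1887 ± 3.88 and *Caprin2* at 1152 ± 0.0035. *Stau2* was lowest, at 186 ± 10.5. The order was the same in each of the 4 libraries, and every pair of neighbours was separated in all of them. With the longest protein-coding transcript as the length, *Caprin2* came to 4405 per kb in WT lenses and stood above *Rbm24* at 3675 and *Celf1* at 2030.

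Of the 7 genes, 4 stood far above the relatives they were compared with. Per kb of exon in WT lenses, *Tdrd7* was 121 times the level of *Tdrd3*, another Tudor domain gene, and 83.4 times that of *Tdrkh*. *Celf1* was 55.6 times the level of *Celf2*, which had normalized values from 853 to 904 in the 4 libraries. *Dnase2b* was 414 times the level of *Dnase2a*, the acid DNase of lysosomes in most tissues, and *Pla2g16* was 482 times that of its relative *Hrasls*. These ratios were large in each library. The ranges were 117 to 126 for *Tdrd7* over *Tdrd3*, 52.6 to 57.2 for *Celf1* and 381 to 465 for *Dnase2b*. For *Pla2g16* over *Hrasls* the ratios were 488 and 475 in the WT pools and 692 and 801 in the null pools. *Hrasls* had only 29 to 47 reads a library, with a log2 fold change of −0.62 (SE 0.32, limma adjusted p 0.316). By the longest protein-coding transcript, 20.5 was the ratio for *Celf1* over *Celf2* 156 that for *Dnase2b* over *Dnase2a* and 776 that for *Pla2g16* over *Hrasls*. In *Dnase2a*, 30.0% of the exon bases overlap *Mast1* on the other strand, so its low level is uncertain if reads were not counted by strand.

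The other families were closer to balance. *Rbm24* was 2.90 times the level of *Rbm38* in WT lenses. The ratio was 2.92 and 2.89 in the WT pools and 2.63 and 2.47 in the null pools. *Rbm38* had a log2 fold change of 0.15 (SE 0.05) and missed the threshold with a limma adjusted p of 0.096. *Caprin2* was 1.28 times that of *Caprin1*, a core stress granule protein gene, or 2.95 times by the longest transcript. *Stau2* was below its relative *Stau1* in each library, at 0.732 of its level and with a range of 0.698 to 0.767.

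**Figure D3:**
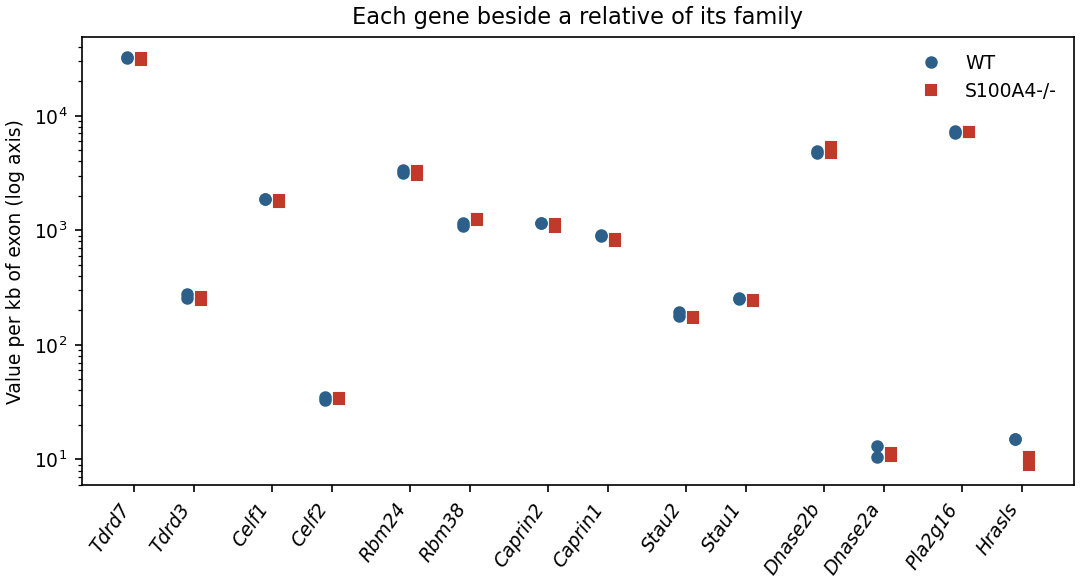
Normalized value per kb of exon, on a log axis, of each of the 7 genes and of a relative to its right, with circles for WT and squares for null pools. The distance between Dnase2b and Dnase2a and between Pla2g16 and Hrasls stands for ratios of 414 and 482 in WT, and Stau2 alone lies below its relative.

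Transcription factors upstream of these genes and transcripts that they are reported to act on were given in a list of 13 genes. Of these, 1 rose and 1 fell at an adjusted p of at most 0.05, where 5.62% and 1.33% of all genes tested did, and the median log2 fold change was −0.03. The lens factors *Foxe3*, *Maf* and *Pax6* had log2 fold changes of −0.06, −0.05 and 0.07 (SE 0.05, 0.04 and 0.05), and none passed the test. *Prox1*, a factor of fiber differentiation, had normalized values of 19000 and 18797 in the null pools against 20307 and 20684 in the WT pools. The groups did not overlap, and with a log2 fold change of −0.12 (SE 0.04) and a limma adjusted p of 0.086 it missed the threshold. Among transcripts reported as targets, *Cdkn1b*, the cell cycle inhibitor whose translation CELF1 represses, had a log2 fold change of −0.03 (SE 0.07), and *Sox2* also had −0.03 (SE 0.06). *Crybb3*, a beta crystallin, *Epha2*, *Sptb* and *Actn2* had log2 fold changes of 0.05, −0.10, −0.12 and 0.23, and none passed, with the lowest limma adjusted p of these 4 genes at 0.082.

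The genes of that list past the threshold were *Lhx2* and *Hspb1*. *Lhx2*, a homeobox gene of retinal and early eye development, had normalized values of 144 and 129 in the null pools against 35.5 and 32.8 in the WT pools. Both null pools were far above the WT pools, with a log2 fold change of 1.96 (SE 0.24) and a limma adjusted p of 1.18e-07, and it passed in 17 of 17 alternatives. *Hspb1*, a small heat shock protein gene whose transcript is low when *Tdrd7* is lost, had normalized values of 23034 and 27053 in the null pools against 28312 and 27792 in the WT pools. The first null pool was the lowest and the second lay close to WT. It fell by 0.17 on the log2 scale (SE 0.05, limma adjusted p 0.025), and the call was not made by DESeq2 (adjusted p 0.753) or edgeR (adjusted p 0.057) and held in 7 of 17 alternatives. Without the first null pool the log2 fold change of *Hspb1* was −0.05 (limma adjusted p 0.578), and without the first or second WT pool the limma adjusted p was 0.172 or 0.070.

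In the CELF, RBM24 and Staufen families 1 of the 7 other genes rose and 0 fell, against 5.62% and 1.33% of all genes tested, with a median log2 fold change of 0.15. This was *Celf4*, a CELF gene of neurons, with normalized values of 93.3 and 79.1 in the null pools against 30.3 and 38.3 in the WT pools. The groups were well apart, with a log2 fold change of 1.31 (SE 0.28) and a limma adjusted p of 0.001. The call was lost without the first null pool (limma adjusted p 0.112) and with limma without trend (0.098). *Celf3*, also a neuronal gene and named here after its values were seen, was at 30.8 and 35.5 against 9.40 and 16.4, with a log2 fold change of 1.34 (SE 0.45) and a limma adjusted p of 0.069. In the Tudor domain list 0 of 8 others passed, with a median of 0.02, and *Tdrkh* and *Tdrd3* had log2 fold changes of −0.09 and −0.07 (SE 0.06 and 0.07).

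Proteins of cytoplasmic RNA granules were described with 2 further lists. Of 14 stress granule genes other than *Caprin2*, 0 rose and 1 fell, beside 5.62% and 1.33% of all genes tested, and the median log2 fold change was −0.08. The one that fell was *G3bp1*, a nucleator of stress granules, with normalized values of 2066 and 2218 in the null pools against 2405 and 2628 in the WT pools. The groups did not overlap, and the log2 fold change was −0.23 (SE 0.06, limma adjusted p 0.010), while the DESeq2 adjusted p was 0.052. It held in 10 of 17 alternatives, and the limma adjusted p for *G3bp1* was 0.197 without the first null pool and 0.284 without the second WT pool. *Caprin1*, whose protein binds G3BP1, had a log2 fold change of −0.13 (SE 0.04) and missed the threshold with a limma adjusted p of 0.081. Of 20 P-body and decapping genes 0 passed in either direction, and their median was −0.02. *Tnrc6b* and *Lsm4*, which had the highest normalized values of the list before division by length, had log2 fold changes of 0.0086 and −0.04 (SE 0.05 and 0.05).

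Enzymes related to *Dnase2b* and *Pla2g16* and other genes of organelle removal were followed in the same way. Of 11 other DNA-degrading enzymes and of 11 other genes of the PLAAT and phospholipase A2 list, 0 passed in either list, where 5.62% of all genes tested rose and 1.33% fell, with median log2 fold changes of −0.11 and −0.05. *Dnase2a* had normalized values of 57.4 and 61.8 in the null pools against 56.4 and 70.1 in the WT pools, which overlapped, with a log2 fold change of −0.08 (SE 0.26). *Apex1*, of base excision repair, had a log2 fold change of −0.11 (SE 0.06) and *Endod1* one of 0.03 (SE 0.08). *Pla2g7* and *Pafah1b2*, of platelet-activating factor breakdown, had log2 fold changes of 0.03 and −0.05 (SE 0.05 and 0.06).

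Of 23 genes tied to organelle loss and fiber denucleation 0 rose and 2 fell, where 5.62% of all genes tested rose and 1.33% fell, and the median log2 fold change was −0.03. *Alox15*, the lipoxygenase linked to organelle membrane opening, had normalized values of 903 and 1006 in the null pools against 1154 and 1210 in the WT pools. The groups did not overlap, and the log2 fold change was −0.31 (SE 0.07, limma adjusted p 0.005), with an adjusted p of 0.043 by DESeq2. *Uchl1*, a ubiquitin hydrolase, had 31456 and 33442 in the null pools against 37443 and 36451 in the WT pools. Here too both null pools were lower, with a log2 fold change of −0.19 (SE 0.04, limma adjusted p 0.002). Neither reached a 2-fold change. Of 17 alternatives, 13 kept the call of *Alox15* and 15 that of *Uchl1*, and the direction was the same in all 17. The limma adjusted p of *Alox15* was 0.162 without the first null pool and 0.072 without the second WT pool, and that of *Uchl1* was 0.115 without the first WT pool.

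**Figure D4:**
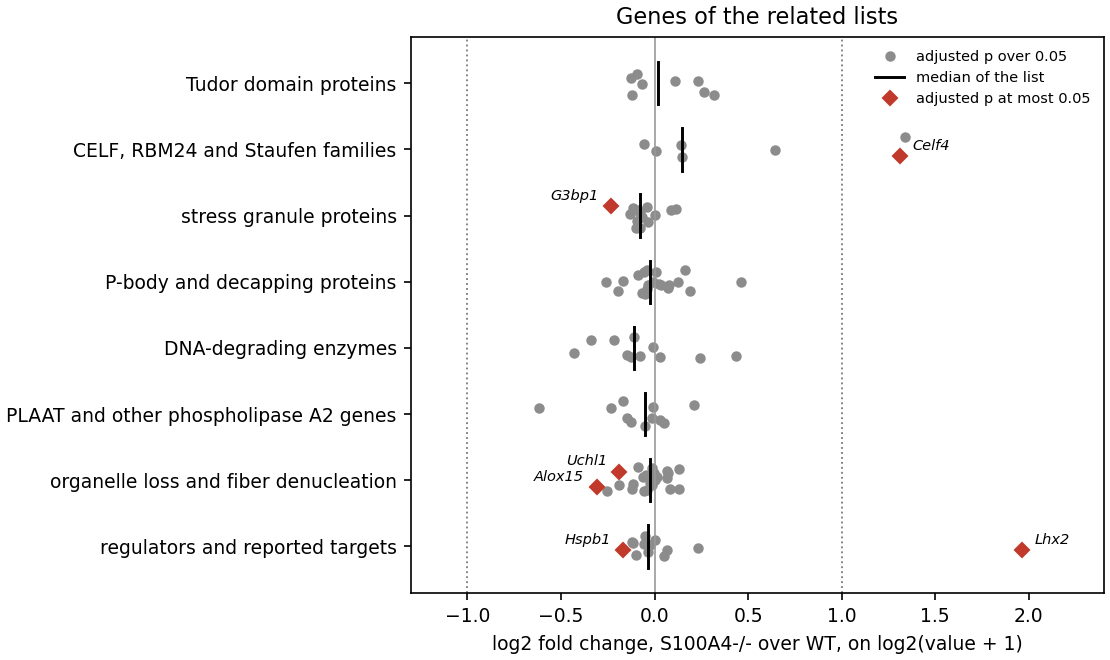
Log2 fold change of each tested gene of the 8 lists other than the 7 genes described first, with red diamonds for genes at an adjusted p of at most 0.05, grey points for the rest and a black line for the median of each list. Dotted lines mark a 2-fold change. The labelled genes are Celf4 and Lhx2 on the right and G3bp1, Alox15, Uchl1 and Hspb1 left of 0.

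Markers of other eye cells moved with the genotype. Of all genes tested 5.62% rose. All 8 rod photoreceptor markers did, and their normalized values summed to 7599 and 7254 in the null pools against 1725 and 1812 in the WT pools, a ratio of 4.20. The highest normalized value, not divided by length here or for the other markers, was that of *Gnat1*, at 3339 and 3327 against 736 and 782. Pigment cell markers summed to 1217 and 1273 in the null pools against 209 and 300 in WT, and 4 of 5 rose. *Dct*, of melanin synthesis, was highest of these in the null pools, at 581 and 582, and *Tyrp1*, of the same pathway, in the WT pools, at 92.9 and 153. Of 4 ciliary body markers 2 had values, and these 2, led by *Best2*, rose, with sums of 733 and 754 against 153 and 184. Of the Mueller glia markers, 3 of 4 rose, with sums of 6710 and 6560 against 2603 and 2823, most of it *Glul*. The sums of these lists were higher in both null pools than in either WT pool.

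For bipolar and amacrine cells 3 of 4 markers rose, against 5.62% of all genes tested. The 4 markers summed to 2862 and 2657 against 2138 and 2142. The highest, the transcription factor gene *Tfap2a*, did not pass the test, at 1544 and 1545 in the null pools against 1510 and 1537 in WT. *Trpm1*, which rose, was at 1186 and 1005 against 593 and 562. Macrophage markers, led by *Csf1r*, summed to 168 and 128 against 55.3 and 55.8, and 2 of 3 rose. Blood vessel markers, led by *Kdr* in the null pools and by *Pecam1* in the WT pools, summed to 112 and 121 against 37.6 and 54.7, and red blood cell markers, led by *Hbb-bs*, to 223 and 217 against 129 and 77.7, with 1 of 3 higher in each list. None of these sums overlapped between the genotypes. No marker with values was at 0 in any library, *Opn5*, *Tfec*, *Vsx1* and *Aif1* had no values and were not analysed here, and 0 of 6 lens epithelium markers passed in either direction, where 1.33% of all genes tested fell, with sums of 106725 and 108737 against 105838 and 106389. The part of these other cells in the values of *Lhx2*, *Celf4*, *Celf3* and the 7 genes was not tested.

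For each of the 7 genes the gene with the most similar profile was sought among 10133 genes, by the distance of centred log2(value + 1) over the 4 libraries. These were *Urgcp* for *Tdrd7*, *Susd3* for *Celf1*, *Plekhh2* for *Rbm24*, *Grpel2* for *Caprin2*, *Exoc5* for *Stau2*, *Plod1* for *Dnase2b* and *Sirt3* for *Pla2g16*, at distances from 0.0019 to 0.0121. With 4 libraries such likeness was common, and from 112 genes for *Dnase2b* to 486 for *Tdrd7* lay within a distance of 0.05.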

How the data were processed

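Poly(A) RNA of 1-month-old lenses was measured in 4 stranded libraries, grouped by their labels. Upstream, the authors used Trim Galore for trimming, STAR for mapping to GRCm38 (mm10), HTSeq for counting single-locus reads per gene and DESeq2 for normalization. Genes under 10 reads in all libraries had been removed. Versions of these tools and the strand setting are not given in the sources used here. The signal values the authors deposited are reads divided by 1 size factor per library, and 0 columns lacked a sample. Dividing by the value of 1 read gave whole reads for 100.0% of values (tolerance 0.01).

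Genotypes were compared with limma 3.58.1 (trend on) on log2(value + 1) in R 4.3.3, for 14780 genes that reached a value of 10 in 1 or more libraries. P-values were adjusted by Benjamini and Hochberg over all genes tested and concern the spread between pools. The limma estimate of that spread for a gene is drawn largely from the other genes. The 2-fold threshold is the study's. DESeq2 1.42.0 and edgeR 4.0.16 on the recovered reads were alternatives, with other pseudocounts, filters and scalings, a replicate block and each library left out. Each test was also tested on simulated data. Coordinates and exon lengths came from GENCODE M21 and promoter windows from RefSeq.

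The 7 genes, the 8 lists and the markers were chosen with earlier results of these data known. Genes named besides the 7 are their close relatives, the regulators and reported targets, the called genes of each list, or the 2 with its highest normalized values where none was called, and the nearest profile of each. The deleted gene *S100a4* was also named. The markers fall outside this rule, and *Celf3*, *Mast1* and the sex-linked genes were chosen after their values were seen.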

Additional observations from a re-analysis of the deposited data

How the results depend on the processing

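None of the 7 genes passed the adjusted threshold in any alternative, and their log2 fold changes lay between −0.147 and 0.137 over 119 values, 106 of them with the direction reported. The lowest adjusted p in these was 0.105. With lens fiber marker scaling the values were 0.003 for Tdrd7, 0.002 for Caprin2, 0.020 for Rbm24 and 0.052 for Pla2g16, and with quantile normalization 0.017 for Rbm24 and 0.000 for Pla2g16. Pla2g16 was at 0.025 with equal library totals and at 0.027 when the 10 most abundant genes were left out of these. Leaving out 1 library in turn gave −0.092 to 0.020 for Rbm24, −0.028 to 0.137 for Dnase2b and −0.020 to 0.012 for Pla2g16. It gave −0.085 to −0.021 for Tdrd7, −0.095 to −0.027 for Celf1, −0.094 to −0.014 for Caprin2 and −0.147 to −0.032 for Stau2. The cause of these moves was not tested. With lens fiber marker scaling 1 of the 7 (Dnase2b) met an unadjusted limma p under 0.05. No other setting that kept all 4 libraries brought any of the 7 there. The main fit thus had 0 of the 7, against 17.7% of all genes tested. The share of all genes under that scaling is not given here, so the count of 1 cannot be set against it. When a library is left out, the lone library of its group is assumed to vary like the other group. Fits without a null pool also brought some of the 7 under an unadjusted limma p of 0.05. Those cases rest on a lone null library and are not counted here.

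Of the listed genes 6 passed without a fold threshold. This count was 3 with equal library totals and 1 with limma without trend. It was 7 with the 10 most abundant genes left out of the totals and 9 with lens fiber marker scaling. With a library left out it moved in either direction. Over all genes limma called 1028, of which 831 were higher and 197 lower. Without the trend 187 were called and by DESeq2 662. The split was 785 higher and 55 lower with equal library totals and 1032 and 79 with lens fiber marker scaling. With a library left out 491 to 890 were called, and 491 and 604 without the first or second null pool.

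The labels number the libraries alike in both groups, but deviations of same-numbered libraries correlated at r = 0.012 over genes, so the numbers were not taken as pairs. With the replicate number as a block 12 of the listed genes and 1330 of all genes passed, and 0 of the 7 genes. The lengths of longest transcripts were chosen after seeing the data. With them the ratios were 112 for Tdrd7 to Tdrd3, 20.5 for Celf1 to Celf2, 2.37 for Rbm24 to Rbm38, 2.95 for Caprin2 to Caprin1, 156 for Dnase2b to Dnase2a and 776 for Pla2g16 to Hrasls. With 2 pools a group, precision is limited, and the intervals given beside each gene hold under the variance that limma shares between genes.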
